A study of Mus musculus with 9 samples.

Results

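The aminoacyl-tRNA synthetases were followed at the mRNA level in RAW264.7, a mouse cell line with macrophage features. Genes were taken by symbol: the names of the cytosolic enzymes, alone or with a final 1, with Farsa and Farsb, and the names of the mitochondrial enzymes, which end in 2. The rule found 37 of the 20627 features in the deposited table, 20 cytosolic and 17 mitochondrial, and all 37 had enough counts to be tested. The study sequenced polyadenylated RNA in 9 libraries, 3 per group. HG-SIG cells were kept for 6 h in 35 mmol/l glucose together with sitagliptin phosphate, an inhibitor of dipeptidyl peptidase 4 used against type 2 diabetes, at a dose not given in the sources used here. HG cells were kept for 6 h in 35 mmol/l glucose without the drug. For NC, taken here as the control, neither a glucose concentration nor a time is given. All groups share the RAW264.7 background, neither an osmotic control nor sitagliptin at ordinary glucose was included, and the labels name 1 batch.

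Aminoacyl-tRNA synthetases join each amino acid to its tRNA, the step that supplies the ribosome with charged tRNA. The cytosol and the mitochondrion use largely separate enzymes, all encoded in the nucleus, and the mitochondrial ones are imported to serve translation of the mitochondrial genome. Many cytosolic synthetase genes are targets of ATF4, the transcription factor made when amino acid shortage or endoplasmic reticulum stress triggers the integrated stress response. Several cytosolic enzymes sit together in a multi-synthetase complex held by the scaffold proteins AIMP1, AIMP2 and EEF1E1.

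Library totals ran from 28886288 to 30752927 counts in HG-SIG, 23285821 to 29543475 in HG and 25527773 to 31571578 in NC, and each synthetase gene had 214 to 18502 counts in each library. On the third principal component, with 7.4% of the variance, HG replicate 3 lay away from its group. Of 8 macrophage markers 8 were tested, with a summed level of 5040 to 5140 CPM (read counts put on a common scale with TMM, edgeR's correction of library totals for composition) in HG-SIG, 9770 to 10600 CPM in HG and 10900 to 11300 CPM in NC. None of the epithelial, lymphocyte and fibroblast markers had enough counts to be tested. Their summed levels reached at most 0.0669, 0.118 and 0.201 CPM, and Cdh1, Cd3e, Ms4a1, Pdgfra and Dcn were absent or at 0. In bulk RNA, fewer cells of a type and less RNA per cell cannot be told apart.

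The promoters of some cytosolic synthetase genes hold the C/EBP-ATF response element, the DNA motif that ATF4 binds with a C/EBP partner, and they are shown because the cytosolic genes that changed most in HG come from the ATF4 target list. The letters TGATGNAA were searched on both strands, from 250 bases before to 50 bases after the start site, in RefSeq promoters of build GRCm38.p6. Each line below runs 5′ to 3′ on the strand of the gene, with the motif or its reverse complement in capitals. The genome positions are chr8:111033690-111033777 (plus strand) for Aars, chr6:55037931-55038000 (plus) for Gars, chr13:49682097-49682144 (plus) for Iars, chr15:11399659-11399713 (minus) for Tars and chr4:129189866-129189913 (plus) for Yars.
Aars: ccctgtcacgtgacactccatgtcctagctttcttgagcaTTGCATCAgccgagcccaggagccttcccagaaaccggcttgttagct
Gars: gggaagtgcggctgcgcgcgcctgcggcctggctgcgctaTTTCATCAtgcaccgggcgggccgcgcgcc
Iars: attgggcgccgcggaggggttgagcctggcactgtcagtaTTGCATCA
Tars: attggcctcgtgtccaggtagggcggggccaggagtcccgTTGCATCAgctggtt
Yars: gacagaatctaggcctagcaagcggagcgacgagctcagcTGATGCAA
The motif begins 112, 30 and 15 bases before the annotated start site in Aars, Gars and Tars, and at bases 8 and 4 of the transcript in Iars and Yars. Aars holds a further match at base 10 of its transcript. Promoters were matched for 27 of the 37 genes. Of the ATF4 target list, Cars, Nars, Lars and Wars had no matched promoter and were not searched. Eprs, Mars1 and Sars were searched and held no match. The motif stood in 5 of 8 promoters of the ATF4 target list (62.5%), in 0 of 5 of other cytosolic genes and in 0 of 14 of mitochondrial genes, against 1219 of 27025 genes with a promoter in the table (4.51%). A match is a description of these letters in this window. The list was chosen with earlier results of these data known, and genes may be counted as targets partly for this motif. The shares are therefore no separate support for the list.

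Levels were compared between genes as TPM, in which counts are divided by transcript length and scaled to a common total. Cytosolic synthetase mRNAs were the more abundant class, with a median of 164 TPM in HG-SIG, 156 in HG and 170 in NC. The mitochondrial class had medians of 24.1 TPM in HG-SIG, 21.2 in HG and 22.9 in NC. Within the cytosolic class the highest level was that of Nars, the asparaginyl-tRNA synthetase gene, at 407, 326 and 474 TPM in HG-SIG, HG and NC. The lowest was that of Cars, for cysteine, at 76.2, 54.1 and 82.4 TPM. The genes at both ends of the class were the same in every group. The mitochondrial class ran from Mars2, for methionine, at 5.81, 5.32 and 4.62 TPM, to Tars2, for threonine, at 89.7, 82.6 and 76.9 TPM. Tars2 thus lay above cytosolic Cars in HG-SIG and HG, where the classes overlapped at their ends, and below it in NC, where they did not.

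The first question was how each class behaved in HG relative to NC. Most cytosolic synthetase mRNAs fell in HG, and the mitochondrial ones that changed mostly rose. Of the 20 cytosolic genes 0 rose and 13 fell, and 7 did not pass the test (adjusted p under 0.05), with a median log2 fold change of -0.15 and a range of -0.64 to 0.11. Of the 17 mitochondrial genes 7 rose, 1 fell and 9 did not pass, with a median of 0.14 and a range of -0.15 to 0.38. Among all 13311 features tested 29.5% passed, 14.3% higher and 15.2% lower, with a median of 0.00. The HG and NC libraries did not overlap for 15 cytosolic genes, all lower in HG, and for 11 mitochondrial genes, 10 higher and 1 lower, where 20.8% of all features were apart in each direction. Of the 13 cytosolic calls, 10 passed under every alternative (Aars, Cars, Farsb, Gars, Iars, Lars, Nars, Sars, Tars and Yars). Those of Dars, Eprs and Rars, with the smallest changes of the 13, were lost under scaling by library size (adjusted p of 0.072, 0.088 and 0.079) and in several fits that left out a library. Of the 7 mitochondrial genes that rose, 6 passed under every alternative. Mars2 did not pass with DESeq2 (adjusted p = 0.083) or limma on log2(TPM + 1) (0.061). It was also lost without HG replicate 2 (0.12) or NC replicate 1, 2 or 3 (0.075, 0.059 and 0.083). No cytosolic gene passed as higher in the main edgeR fit, DESeq2 or limma-voom, and 1, Vars, was higher at an unadjusted p under 0.05 in that edgeR fit. Under other alternatives 1 gene passed as higher by library size, with a replicate block and without HG replicate 1. With limma on log2(TPM + 1) 2 genes did. Without HG replicate 3, 11 cytosolic genes fell and 7 mitochondrial genes rose.

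**Figure D1:**
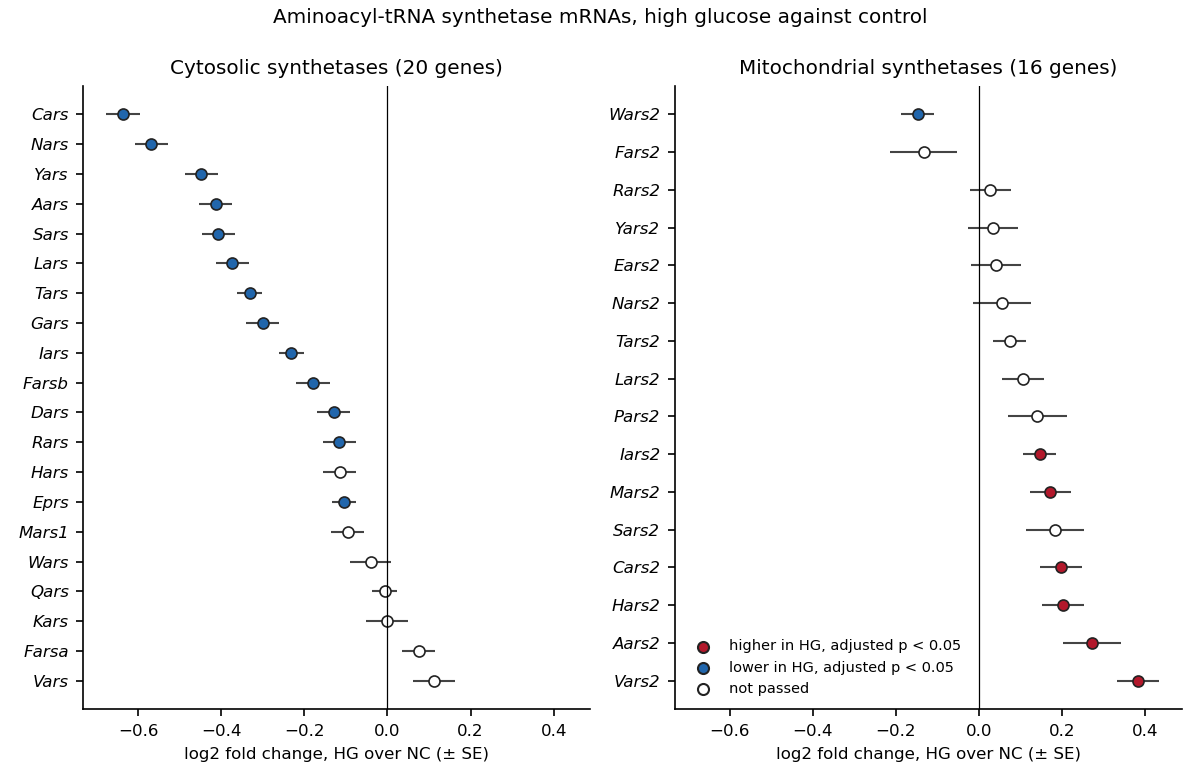
Log2 fold change of HG over NC (x axis, ± SE) for each of the 20 cytosolic genes (left) and 16 of the 17 mitochondrial genes (right), ordered from lowest to highest; filled points passed the test. In the cytosolic panel 13 points are filled and all lie below 0, down to -0.64 for Cars, and in the mitochondrial panel 6 filled points lie above 0 and 1, Wars2, lies below.

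Cars, which charges the cysteine tRNA, lies at chr7:143557230-143600090 on the minus strand of mm10. It had 78.8, 80.7 and 79.7 CPM in HG libraries, against 126, 126 and 120 CPM in NC libraries, a log2 fold change of -0.64 ± 0.04 (standard error), with an adjusted p of 3.4e-08. All 3 HG libraries lay well below every NC library. Nars was next, with 403, 426 and 400 CPM in HG, against 614, 614 and 594 CPM in NC (log2 fold change -0.57 ± 0.04, adjusted p = 2.3e-07). Its groups were also apart, with the highest HG library under the lowest NC library. Yars, for tyrosine (chr4:129189760-129219607, plus strand), had 148, 157 and 145 CPM in HG and 200, 214 and 200 CPM in NC (log2 fold change -0.45 ± 0.04, adjusted p = 4.9e-06). Aars, for alanine (chr8:111033144-111057664, plus strand), had 212, 219 and 202 CPM in HG and 279, 288 and 276 CPM in NC (log2 fold change -0.41 ± 0.04, adjusted p = 8.4e-06). In both genes the HG libraries lay together, clear of NC. Lars, for leucine, had 206, 224 and 212 CPM in HG, against 282, 275 and 274 CPM in NC (log2 fold change -0.37 ± 0.04, adjusted p = 1.5e-05). Tars, for threonine (chr15:11382301-11399665, minus strand), had 254, 253 and 249 CPM in HG, against 322, 322 and 308 CPM in NC (log2 fold change -0.33 ± 0.03, adjusted p = 9.7e-06). The groups did not overlap in either gene, and the spread among Tars libraries within HG was the smaller of the pair. Sars, Gars and Iars, for serine, glycine and isoleucine, fell by 0.41, 0.30 and 0.23 on the log2 scale.

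**Figure D2:**
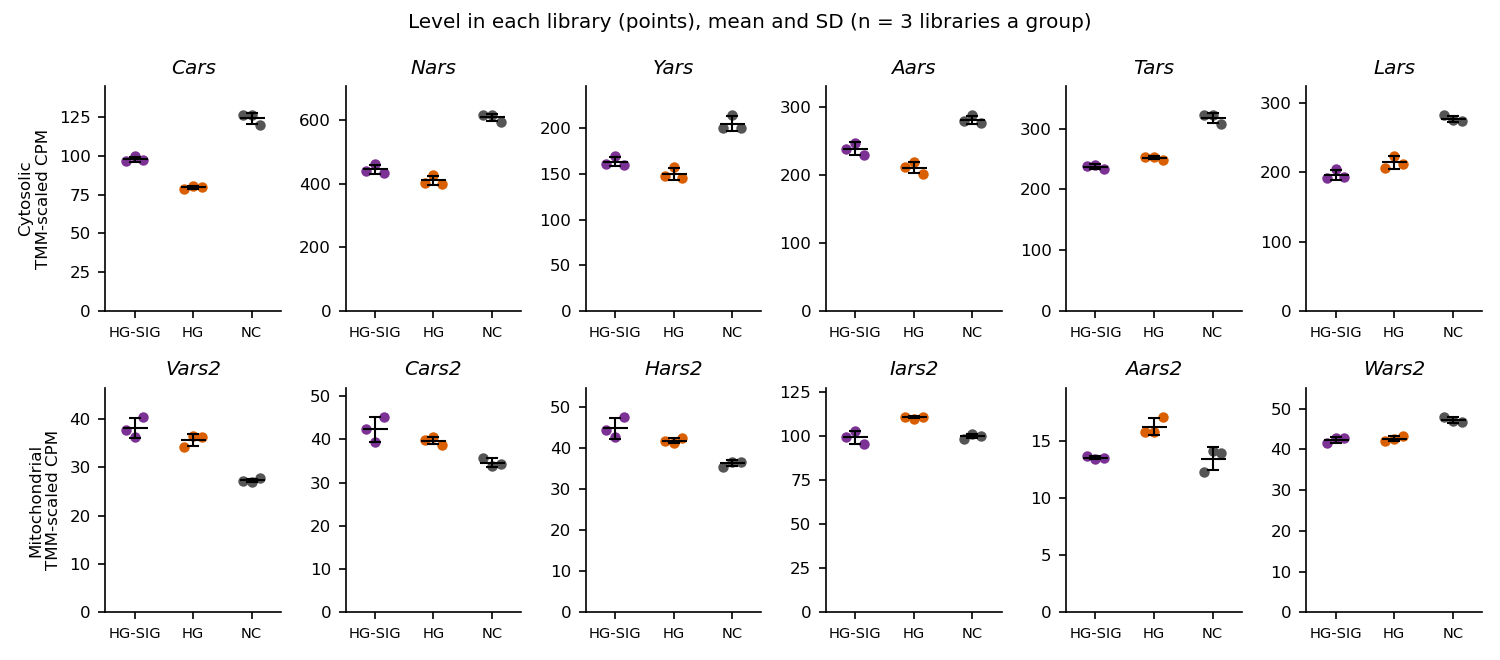
TMM-scaled CPM of 6 cytosolic genes (top row) and 6 mitochondrial genes (bottom row) in HG-SIG, HG and NC; points are the 3 libraries of a group and bars the mean with SD, on axes that start at 0. HG lies below NC in the whole top row and above it in all of the bottom row but Wars2, while HG-SIG lies above HG for Cars, Nars, Yars and Aars and below it for Tars and Lars; for Tars and Lars the sign of HG-SIG against HG turns when libraries are scaled by size alone.

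The remaining cytosolic genes had smaller log2 fold changes. Farsb and Farsa encode the subunits of the phenylalanine enzyme, and they differed. Farsb had 165, 160 and 154 CPM in HG and 187, 177 and 179 CPM in NC (log2 fold change -0.18 ± 0.04, adjusted p = 0.0035), while for Farsa the log2 fold change was 0.08 ± 0.04, with an adjusted p of 0.21. Their difference was not tested. Farsb overlaps Sgpp2 on the other strand over 9.47% of its exonic length. Vars, for valine, had 364, 417 and 394 CPM in HG and 349, 371 and 368 CPM in NC, with overlapping libraries and a log2 fold change of 0.11 ± 0.05 (adjusted p = 0.099). It passed as higher by library size and without HG replicate 1 (adjusted p of 0.032 and 0.018). Qars, for glutamine, and Kars, for lysine, had log2 fold changes of -0.01 ± 0.03 and 0.00 ± 0.05. Kars serves both compartments from 1 gene, as does Gars, which fell.

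The cytosolic genes were split by their roles, beside the 14.3% of all features called higher in HG and the 15.2% called lower. Of the 12 genes often counted as ATF4 targets 0 rose, 10 fell and 2 did not pass (Mars1 and Wars), with a median log2 fold change of -0.35. Of the other 8 cytosolic genes 0 rose, 3 fell (Dars, Farsb and Rars) and 5 did not pass, with a median of -0.06; scaled by library size, Farsb alone of these fell and Vars rose. The summed level of the 12 was 1.75 ± 0.0171 times that of the other 8 in HG and 2.15 ± 0.0516 times in NC (SD, n = 3), a ratio that is free of library scaling. Of the 8 enzymes of the multi-synthetase complex 5 fell (Lars, Iars, Eprs, Rars and Dars) and 3 did not pass, with a median of -0.11. Scaled by library size, 2 of the 8 fell (Lars and Iars). Of the 12 cytosolic genes outside the complex 8 fell and 4 did not pass, with a median of -0.32. By the structural classes of the enzymes, 6 of 10 class I and 7 of 10 class II cytosolic genes fell.

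Stress response genes were set beside them. Of 10 genes 1 rose, 7 fell and 2 did not pass, with a median log2 fold change of -0.54. The shares of all features called were 14.3% higher and 15.2% lower. Atf4 itself had 213, 212 and 203 CPM in HG and 308, 299 and 285 CPM in NC (log2 fold change -0.51 ± 0.04, adjusted p = 7.3e-07). Asns, which makes asparagine, had 148, 148 and 140 CPM in HG and 256, 258 and 248 CPM in NC (log2 fold change -0.80 ± 0.04, adjusted p = 1.5e-08). Both thus fell, as 10 synthetases of the ATF4 list did, with no overlap of libraries. Trib3, a pseudokinase induced by ATF4, had 1.53, 1.14 and 1.19 CPM in HG and 8.8, 6.27 and 9.43 CPM in NC (log2 fold change -2.66 ± 0.18, adjusted p = 2.9e-07). Ddit3, a transcription factor of stress-induced cell death, was lower by a log2 fold change of -0.57 ± 0.09, adjusted p = 0.00037. Exons of Ddit3 share 68 bases with those of the more abundant Mars1 on the other strand, and the strand setting of the counting is not given. The part of these genes in the change of the synthetases was not tested.

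Among mitochondrial synthetases Vars2, for valine, rose most in HG (chr17:35655634-35667592, minus strand). It had 34.2, 36.4 and 36.2 CPM in HG libraries and 27.1, 27.0 and 27.7 CPM in NC libraries (log2 fold change 0.38 ± 0.05, adjusted p = 0.00011). Cars2, for cysteine (chr8:11513977-11550783, minus strand), had 39.8, 40.5 and 38.8 CPM in HG and 35.8, 33.8 and 34.3 CPM in NC (log2 fold change 0.20 ± 0.05, adjusted p = 0.013). In both genes each HG library lay above each NC library. Vars2 and Cars2 overlap Gm20483 and Naxd on the other strand over 8.52% and 5.83% of their exonic length. Aars2, for alanine, had 15.8, 15.8 and 17.1 CPM in HG and 12.3, 14.1 and 13.9 CPM in NC (log2 fold change 0.27 ± 0.07, adjusted p = 0.0093). Hars2, for histidine, had 41.6, 41.2 and 42.4 CPM in HG and 35.5, 36.7 and 36.7 CPM in NC (log2 fold change 0.20 ± 0.05, adjusted p = 0.0064). Hars2 starts opposite its cytosolic counterpart Hars, and their exons share 195 bases on opposite strands. Since the strand setting of the counting is not given, reads from those bases could not be assigned to one of them. Iars2, for isoleucine, had 111, 110 and 111 CPM in HG and 98.7, 101 and 100 CPM in NC (log2 fold change 0.15 ± 0.04, adjusted p = 0.0081). The groups were apart, but 24.18% of its exonic length overlaps Rab3gap2 and 2010103J01Rik on the other strand. Mars2 also rose, by 0.17 on the log2 scale, a call lost in several fits as given above.

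Wars2, for tryptophan, was the 1 mitochondrial gene that fell, with 42.1, 42.5 and 43.4 CPM in HG and 48.0, 47.0 and 46.7 CPM in NC (log2 fold change -0.15 ± 0.04, adjusted p = 0.01). The groups did not overlap, and the call was lost in a limma fit of log2(TPM + 1), with an adjusted p of 0.085. The 9 mitochondrial genes that did not pass ran from a log2 fold change of -0.13 for Fars2 to 0.18 for Sars2. Fars2 overlaps Lyrm4 and Nrn1 over 10.72% of its exonic length.

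Summed over each class, the cytosolic genes reached 4317 ± 79.7 CPM in HG-SIG, 4413 ± 90.1 CPM in HG and 5185 ± 61.9 CPM in NC (SD, n = 3). The mitochondrial genes reached 694.2 ± 1.84 CPM in HG-SIG, 715.8 ± 9.25 CPM in HG and 654.8 ± 4.83 CPM in NC. The ratio of the sums within a library does not depend on how libraries are scaled. It was 6.23, 6.34 and 6.08 in HG-SIG, 6.14, 6.22 and 6.13 in HG and 7.97, 7.96 and 7.82 in NC. Every high glucose library, with or without the drug, lay below every NC library, and the HG-SIG and HG libraries overlapped.

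**Figure D3:**
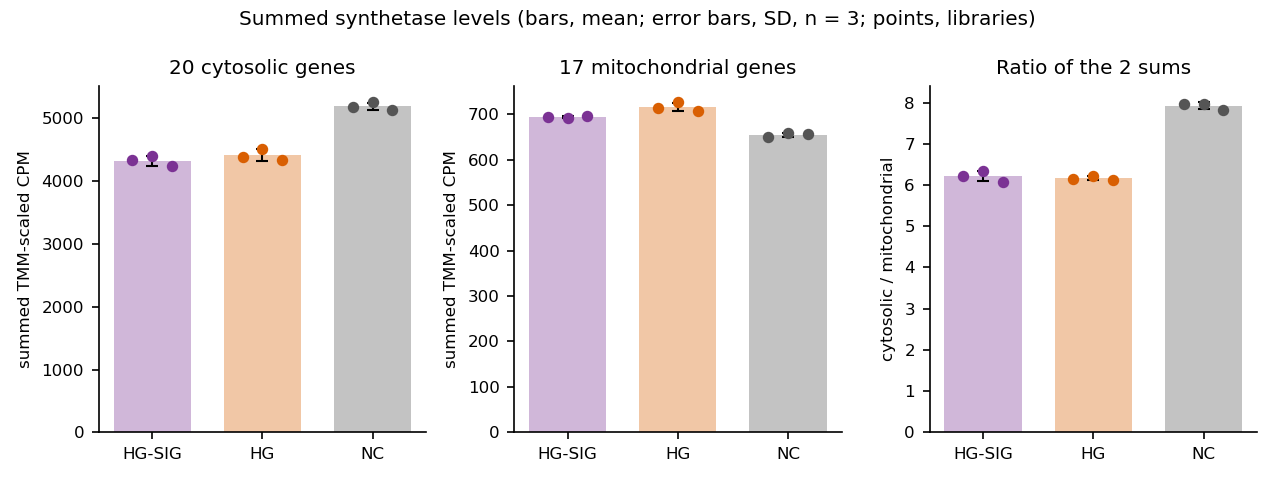
Summed TMM-scaled CPM of the 20 cytosolic genes (left) and 17 mitochondrial genes (middle) and the ratio of the sums (right) in HG-SIG, HG and NC; bars are means, error bars SD over 3 libraries, points the libraries. The ratio stands at 6.22 in HG-SIG, 6.17 in HG and 7.92 in NC; of the sums, HG-SIG lies below HG here and above it when libraries are scaled by size alone.

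For 14 amino acids the cytosolic and the mitochondrial gene were paired by symbol. The log2 ratio of their TPM was taken within each library, which also removes the scaling. Between HG and NC the ratio was lower in HG for 13 pairs without overlap of libraries, higher for 0 and overlapping for 1 (Wars and Wars2). The median difference over the 14 pairs was -0.41. Phenylalanine, glutamate and proline also have genes in both classes (Farsa and Farsb with Fars2, and Eprs with Ears2 and Pars2) but were not paired. Farsa, Farsb and Fars2 had log2 fold changes of 0.08, -0.18 and -0.13 in HG against NC. Those of Eprs, Ears2 and Pars2 were -0.10, 0.04 and 0.14. The pair for cysteine differed most, with log2 ratios of 0.22, 0.23 and 0.28 in HG and 1.06, 1.13 and 1.05 in NC, a difference of -0.83. The pair for alanine followed, with 2.97, 3.01 and 2.78 in HG and 3.72, 3.57 and 3.53 in NC, a difference of -0.69. In neither pair did a library of HG reach the range of NC. With 3 libraries against 3 the smallest p of an exact two-sided permutation test is 0.1, which each of the 13 pairs reached, so no pair could pass 0.05 alone.

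**Figure D4:**
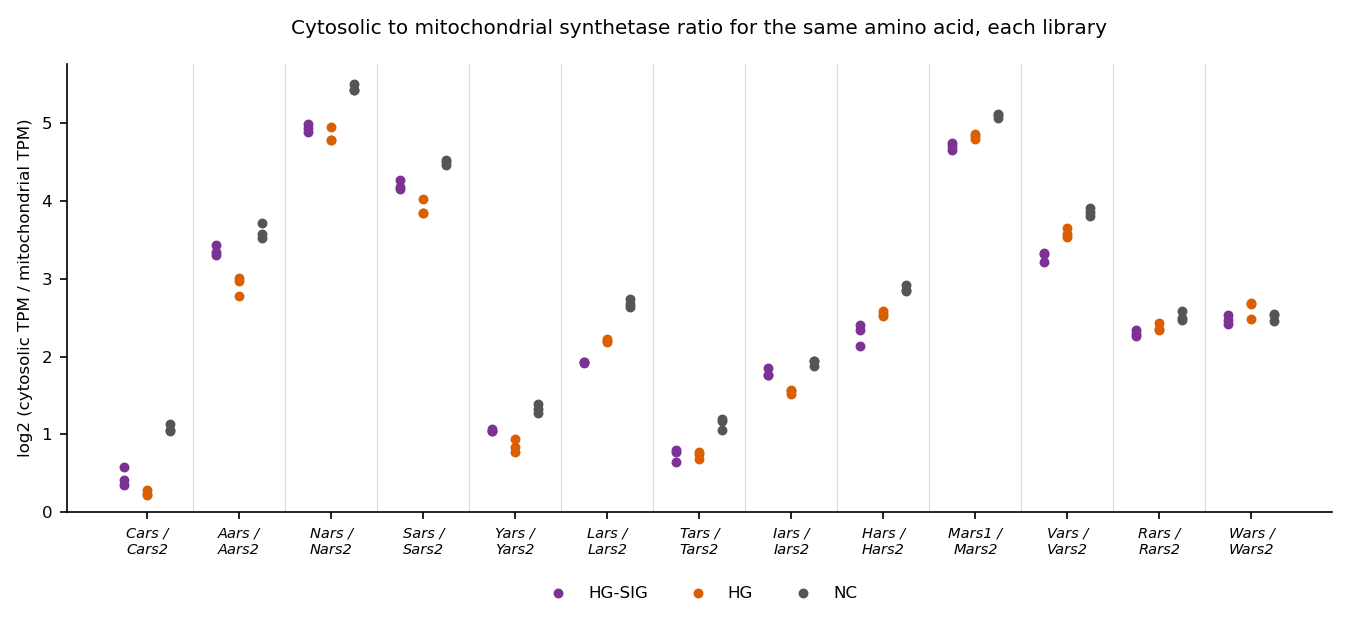
Log2 ratio of cytosolic to mitochondrial TPM (y axis) for 13 of the 14 amino acids whose genes were paired by symbol, in each library of HG-SIG, HG and NC. HG points lie below NC points in 12 of the 13 pairs drawn, all but Wars and Wars2, and HG-SIG points lie above HG points without overlap in 5 pairs and below them in 4.

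HG-SIG was compared with HG to ask what sitagliptin did under high glucose. Cytosolic synthetase mRNAs divided. Under TMM scaling 5 of the 20 cytosolic genes rose (Cars, Aars, Yars, Nars and Iars), 7 fell (Farsb, Vars, Mars1, Hars, Wars, Farsa and Lars) and 8 did not pass, with a median log2 fold change of -0.04 and a range of -0.25 to 0.29. Of the 17 mitochondrial genes 1 rose (Lars2), 4 fell (Ears2, Sars2, Aars2 and Iars2) and 12 did not pass, with a median of -0.07 and a range of -0.41 to 0.16. The libraries did not overlap for 15 cytosolic genes, 5 higher and 10 lower, and for 6 mitochondrial genes, 2 higher and 4 lower, against 29.9% of all features higher and 28.8% lower. Among all features 52.5% passed, 25.7% higher and 26.8% lower, with a median of 0.01. The share of cytosolic genes called, 12 of 20, was thus near that of all features, and the share of mitochondrial genes, 5 of 17, below it. Without HG replicate 3, 4 cytosolic genes rose and 8 fell. HG libraries serve in both this comparison and that of HG with NC.

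Directions here depend on the scaling. Scaling by library size in place of TMM moved the median of all features by over 0.1, to 0.17, and the share of calls that were higher to 76.9% against 48.9% with TMM. Under it 11 cytosolic genes rose and 0 fell, and 8 mitochondrial genes rose and 1 fell, where 6093 of all 13311 features rose and 1826 fell. The rises of Cars, Aars, Yars, Nars, Iars and Lars2 and the fall of Ears2 passed under both scalings and in the TPM fit. The 7 cytosolic falls and those of Sars2, Aars2 and Iars2 passed under TMM and neither of the other scalings. They are falls relative to the median of all features. Summed macrophage markers were also lower in HG-SIG, as given above, and their part in these changes was not tested.

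Cars had 96.5, 99.6 and 97.2 CPM in HG-SIG libraries, against 78.8, 80.7 and 79.7 CPM in HG libraries (log2 fold change 0.29 ± 0.04, adjusted p = 2e-05). Every HG-SIG library lay above the HG range and below the NC range. Aars had 239, 248 and 229 CPM in HG-SIG and 212, 219 and 202 CPM in HG libraries (log2 fold change 0.18 ± 0.04, adjusted p = 0.003). Both were called under each alternative. Nars had 440, 461 and 434 CPM in HG-SIG and 403, 426 and 400 CPM in HG libraries (log2 fold change 0.12 ± 0.04, adjusted p = 0.019). Yars had 161, 169 and 160 CPM in HG-SIG and 148, 157 and 145 CPM in HG libraries (log2 fold change 0.12 ± 0.04, adjusted p = 0.027). Iars had 275, 283 and 281 CPM in HG-SIG and 256, 263 and 268 CPM in HG libraries (log2 fold change 0.09 ± 0.03, adjusted p = 0.035). The groups did not overlap in these 3 genes, but the changes were small and the calls of Nars, Yars and Iars were lost without HG-SIG replicate 2 (adjusted p of 0.089, 0.11 and 0.1) or HG replicate 1 (0.068, 0.082 and 0.13). Yars was also lost without HG replicate 3 (adjusted p = 0.062). Iars, the weakest call, was also lost without HG-SIG replicate 1 or 3 (adjusted p of 0.051 and 0.084), without HG replicate 2 (0.076), with no filter on low counts (0.084) and with only these 2 groups in the fit (0.055).

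Farsb had 133, 137 and 132 CPM in HG-SIG and 165, 160 and 154 CPM in HG libraries (log2 fold change -0.25 ± 0.04, adjusted p = 0.00015). Mars1, for methionine, had 183, 181 and 171 CPM in HG-SIG and 203, 210 and 200 CPM in HG libraries (log2 fold change -0.20 ± 0.04, adjusted p = 0.00097). For both the libraries were apart, and Farsb is the cytosolic gene with the lowest fold change here. Vars had 344, 335 and 345 CPM in HG-SIG and 364, 417 and 394 CPM in HG libraries (log2 fold change -0.20 ± 0.05, adjusted p = 0.0037). Hars, for histidine, had 134, 135 and 125 CPM in HG-SIG and 149, 144 and 145 CPM in HG libraries (log2 fold change -0.16 ± 0.04, adjusted p = 0.0069). Under library size these falls shrank to -0.09 for Farsb, -0.04 for Mars1 and Vars and 0.00 for Hars, and none passed.

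**Figure D5:**
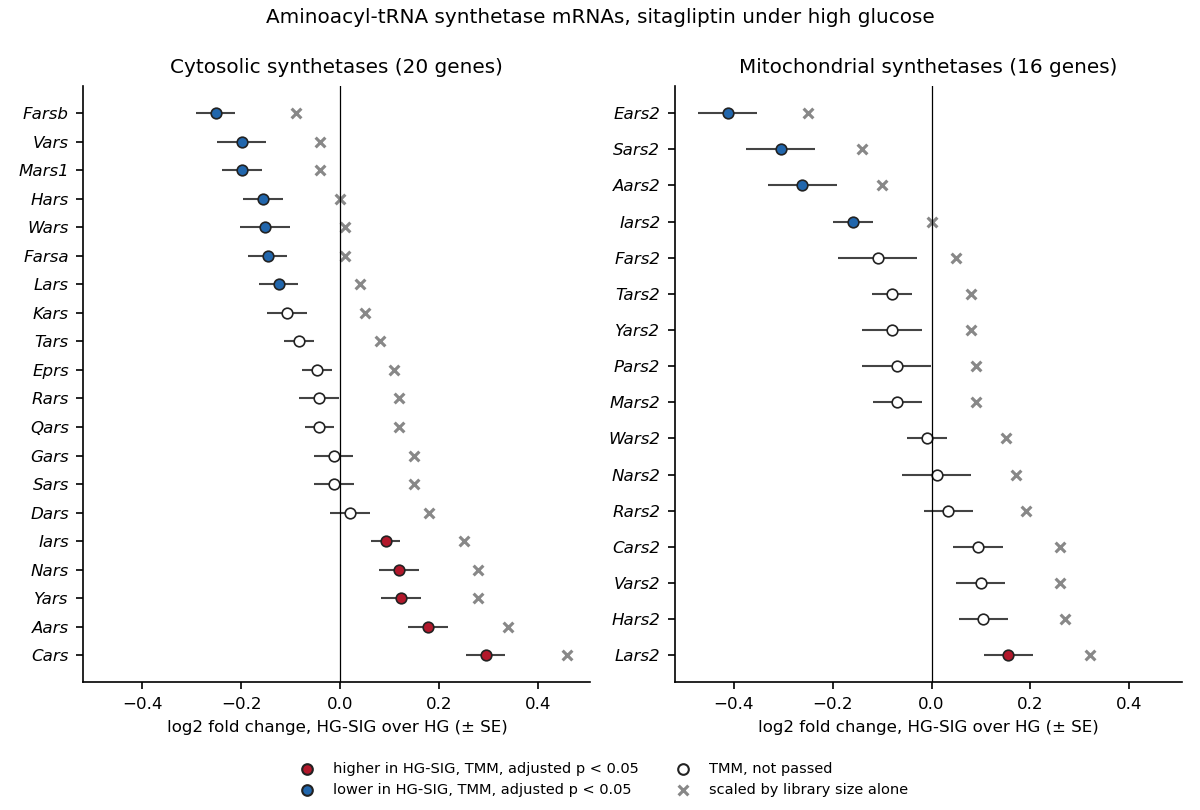
Log2 fold change of HG-SIG over HG (x axis) for the 20 cytosolic genes (left) and 16 of the 17 mitochondrial genes (right); circles are the TMM fit with SE, filled where the gene passed, and crosses the fit scaled by library size. Under TMM 5 cytosolic points are filled above 0 and 7 below, while every cross lies to the right of its circle; of the filled genes Cars, Aars, Yars, Nars, Iars, Lars2 and Ears2 also passed by library size.

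Of the mitochondrial genes Ears2, for glutamate, fell most. It had 14.0, 13.6 and 13.3 CPM in HG-SIG and 17.2, 18.9 and 18.3 CPM in HG libraries (log2 fold change -0.41 ± 0.06, adjusted p = 8.6e-05). It passed under every alternative, at -0.25 with library size, and the NC libraries, with 17.8, 18 and 17.2 CPM, lay among those of HG. Sars2, for serine, had 13.3, 14.0 and 13.7 CPM in HG-SIG and 15.8, 18.5 and 16.4 CPM in HG libraries (log2 fold change -0.31 ± 0.07, adjusted p = 0.0024). Aars2 had 13.7, 13.4 and 13.5 CPM in HG-SIG, against the 15.8 to 17.1 CPM of HG (log2 fold change -0.26 ± 0.07, adjusted p = 0.0057). Iars2 had 99.4, 103 and 95.6 CPM in HG-SIG, against 111, 110 and 111 CPM in HG libraries (log2 fold change -0.16 ± 0.04, adjusted p = 0.0024). For Aars2 and Iars2 the HG-SIG libraries overlapped those of NC. Lars2, for leucine, had 49.6, 52.3 and 49.8 CPM in HG-SIG and 42.9, 47.7 and 45.7 CPM in HG libraries (log2 fold change 0.16 ± 0.05, adjusted p = 0.013), a call that was lost without HG-SIG replicate 2 or HG replicate 1 (adjusted p of 0.057 and 0.067). Hars2 had 44.3, 42.6 and 47.6 CPM in HG-SIG and 41.6, 41.2 and 42.4 CPM in HG, just apart, and did not pass (log2 fold change 0.11 ± 0.05, adjusted p = 0.074).

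The cytosolic genes were counted by role again under TMM, where 52.5% of all features passed, 25.7% higher and 26.8% lower. Of the 12 genes of the ATF4 list 5 rose, 3 fell (Lars, Mars1 and Wars) and 4 did not pass, with a median log2 fold change of -0.01. Of the other 8 cytosolic genes 0 rose, 4 fell (Farsb, Farsa, Hars and Vars) and 4 did not pass, with a median of -0.13. The 3 falls of the ATF4 list became 1, that of Mars1, without HG-SIG replicate 3 or HG replicate 2, where Lars (adjusted p of 0.067 and 0.095) and Wars (0.055 and 0.068) were lost. Lars was also lost without HG-SIG replicate 1 (adjusted p = 0.085), and Wars narrowly without HG replicate 1. Scaled by library size, 8 of the 12 and 3 of the 8 rose and 0 of either fell, where 6093 of all 13311 features rose and 1826 fell. The ratio of the summed levels of the 12 and the 8, free of scaling, was 1.89, 1.93 and 1.91 in HG-SIG and 1.74, 1.77 and 1.74 in HG. These groups did not overlap, and both lay below the NC libraries at 2.2, 2.15 and 2.1. Of the multi-synthetase complex 1 rose (Iars), 2 fell (Lars and Mars1) and 5 did not pass under TMM, and 5 rose and 0 fell by library size. The calls of Iars and Lars are those lost without single libraries, as above. In the pairs for the same amino acid the cytosolic to mitochondrial ratio was higher in HG-SIG without overlap for 6 of 14 (those for alanine, serine, isoleucine, cysteine and tyrosine among them), lower for 4 (valine, leucine, histidine and methionine) and overlapping for 4, with a median difference of 0.04. The alanine pair had the highest difference, with log2 ratios of 3.35, 3.43 and 3.31 in HG-SIG and 2.97, 3.01 and 2.78 in HG, a difference of 0.44.

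Atf4 fell in this comparison, while 5 synthetases of its target list rose. It had 157, 153 and 159 CPM in HG-SIG, below the 203 to 213 CPM of HG (log2 fold change -0.42 ± 0.04, adjusted p = 2e-06). Asns had 178, 191 and 177 CPM in HG-SIG, above the 140 to 148 CPM of HG (log2 fold change 0.32 ± 0.04, adjusted p = 3e-05). Both calls passed under every alternative. Ddit3 had 3.57, 3.92 and 3.46 CPM in HG-SIG and 5.47, 5.18 and 4.79 CPM in HG libraries (log2 fold change -0.50 ± 0.10, adjusted p = 0.00081). Trib3 had overlapping libraries and a log2 fold change of 0.19 ± 0.23 (adjusted p = 0.5). Of the 10 stress response genes 3 rose, 4 fell and 3 did not pass. The shares of all features called were 25.7% higher and 26.8% lower. The mRNA level of Atf4 does not measure its protein, which is set largely by translation.

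HG-SIG was also compared with NC, with which both other comparisons share libraries. Of the 20 cytosolic genes 0 rose, 16 fell and 4 did not pass (Farsa, Kars, Qars and Vars), with a median log2 fold change of -0.25. None was higher with DESeq2, with limma-voom or at an unadjusted p under 0.05 with edgeR. Of the 17 mitochondrial genes 5 rose (Vars2, Hars2, Cars2 and Lars2 among them), 3 fell (Ears2, Fars2 and Wars2) and 9 did not pass, with a median of 0.06. Without overlap of libraries 19 cytosolic genes were lower, and 6 mitochondrial genes were higher and 3 lower, against 34.2% of all features higher and 31.7% lower. Among all features 58.6% passed, 29.9% higher and 28.7% lower, with a median of 0.02. By library size alone the median of all features was 0.21, and 6786 of the 13311 features rose and 2120 fell. Under that scaling 2 cytosolic genes rose and 9 fell, and 13 mitochondrial genes rose and 1 fell. The falls of Cars, Farsb, Gars, Lars, Nars, Sars, Tars, Yars and Ears2 and all 5 mitochondrial rises passed under every alternative. Side by side, Cars stood at -0.34 in HG-SIG against NC and -0.64 in HG against NC, Aars at -0.23 and -0.41, and Lars at -0.50 and -0.37. The cytosolic to mitochondrial ratio was lower in HG-SIG than in NC without overlap in 13 of 14 pairs, with a median difference of -0.37, and overlapping in the tryptophan pair. Of the unpaired genes, Farsa, Farsb and Fars2 stood at -0.07, -0.43 and -0.24, and Eprs, Ears2 and Pars2 at -0.15, -0.37 and 0.07.

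Partners of tRNA charging were counted from a list of 17, of which 16 were tested. In HG against NC 5 rose, 0 fell and 11 did not pass, and in HG-SIG against HG 5 rose, 6 fell and 5 did not pass under TMM, where 9 rose and 2 fell by library size. Among all features 14.3% were called higher and 15.2% lower in HG against NC, and 25.7% and 26.8% in HG-SIG against HG. By library size 6093 of the 13311 features rose in HG-SIG against HG and 1826 fell. The gene of the list that changed most was Tarsl2, a threonyl-tRNA synthetase paralogue that the naming rule leaves out. It had 42.7, 43.0 and 40.1 CPM in HG-SIG, 22.1, 19.3 and 21.1 CPM in HG and 18, 18 and 17.9 CPM in NC. No libraries overlapped between groups, and the log2 fold change was 1.01 ± 0.06 for HG-SIG against HG (adjusted p = 1.6e-08) and 0.22 ± 0.06 for HG against NC (adjusted p = 0.017, and 0.078 without HG replicate 1). Cytosolic Tars had 239, 241 and 233 CPM in HG-SIG and a log2 fold change of -0.08 ± 0.03 against HG under TMM (adjusted p = 0.054). Its direction depended on the scaling, at 0.08 by library size (adjusted p = 0.06) and 0.11 in limma on log2(TPM + 1), where it passed as higher (adjusted p = 0.0047). Per length, Tarsl2 reached 33 TPM in HG-SIG, against 149 TPM for Tars.

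Ears2 places glutamate on the mitochondrial glutamine tRNA as well as on its own, and an amidotransferase of the subunits encoded by Gatb, Gatc and Qrsl1 then converts it to glutamine. Gatb had 42.6, 44.2 and 40.2 CPM in HG-SIG and 52.5, 52.1 and 52.1 CPM in HG, so it was lower without overlap, as Ears2 was (log2 fold change -0.30 ± 0.04, adjusted p = 6.4e-05). Gatc had 23.7, 22.7 and 23.7 CPM in HG-SIG and 20.6, 20.6 and 19.2 CPM in HG, higher without overlap (log2 fold change 0.21 ± 0.05, adjusted p = 0.0044). Qrsl1 did not pass in that comparison under TMM and was higher by library size (log2 fold change 0.16). Pstk, the kinase that prepares the selenocysteine tRNA, had 18.7, 21.4 and 20.4 CPM in HG-SIG, 15.5, 15.3 and 16.3 CPM in HG and 12.9, 14.0 and 12.7 CPM in NC, with no overlap between any groups. Its log2 fold change was 0.36 ± 0.07 for HG-SIG against HG (adjusted p = 0.00059) and 0.25 ± 0.07 for HG against NC (adjusted p = 0.016), a call lost without NC replicate 1 or 3. The scaffold gene Aimp2 had 49.0, 49.6 and 45.5 CPM in HG-SIG and 61.4, 62.2 and 56.7 CPM in HG libraries (log2 fold change -0.33 ± 0.05, adjusted p = 0.00015), and it passed under each alternative. The other scaffold genes, Aimp1 and Eef1e1, fell under TMM, with log2 fold changes of 0.03 and -0.02 by library size that did not pass. Aarsd1, which removes wrongly attached amino acids from alanine tRNA, had 64.6, 58.3 and 58.7 CPM in HG and 49.9, 55.1 and 51.1 CPM in NC (log2 fold change 0.22 ± 0.06, adjusted p = 0.0085).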

How the data were processed

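Messenger RNA was measured in 9 RAW264.7 libraries, with groups taken from sample titles. The authors deposited whole-number gene counts (100% of values whole) for 20627 features. The submitters' processing notes list Bowtie2 2.3.5, RSEM and build mm10; which annotation and strand setting were used is not stated in the labels. Features with no Ensembl identifier (1996, with 5.85% to 6.21% of a library's counts) were tested along with the rest.

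Features that passed filterByExpr (by group; 13311) were scaled with TMM and tested in edgeR 4.0.16 (R 4.3.3) by quasi-likelihood, in 1 model of all 9 libraries. Benjamini-Hochberg adjustment ran over the 13311 features, with calls at 0.05; an adjusted p is this one where no other test is named. CPM are TMM-scaled. The series' design text names limma on log2 TPM, which was run as an alternative. TPM were made here from the counts and the length of the transcript with the longest coding sequence in GENCODE M21 (GRCm38, the assembly of mm10). They served to compare levels between genes, for the pair ratios, as another scale of the class sums and for limma on log2(TPM + 1).

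The members and lists were chosen with earlier results of these data known, so they are described by counts and medians, with no test over a list. Values per library are given for the 6 genes of each class with the lowest p in HG against NC and in HG-SIG against HG, for genes called against most of their class, for the 3 partners with the lowest p in each comparison and for Atf4, Asns, Ddit3 and Trib3; Farsa, Aimp1, Eef1e1, Qrsl1 and the other genes named with a value were added after their values were seen. The labels do not say whether replicates were separate cultures; p-values then reflect the spread among these samples alone, possibly technical. Replicates of a group differed by 2.85 to 9.45 chi-square units per gene, more than counting noise. Alternatives were scaling by library size, DESeq2 1.42.0, limma-voom and limma on log2(TPM + 1) (limma 3.58.1), no filter, only the groups compared, a replicate block, features without an identifier left out, and each library left out. Of the mitochondrial genes 1 is counted but not reported here by name. The scripts were tested on simulated counts.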

Additional observations from a re-analysis of the deposited data

How the results depend on the processing

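Of HG against NC, no synthetase gene changed direction with a call under any alternative, the ratios of class sums and of pairs do not depend on library scaling, and the pair differences moved by less than the spread between libraries in every fit that left out a library. In both comparisons of HG-SIG many directions depend on the scaling. In HG-SIG against HG the calls of Cars, Aars and Ears2 passed under every alternative, and those of Iars, Nars, Yars and Lars2 in both other scalings. In HG-SIG against NC 8 cytosolic falls, 5 mitochondrial rises and the fall of Ears2 passed under every alternative. With 3 libraries a group, small changes near the threshold pass or not with the choice of fit, and the cause was not tested.

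Cytosolic genes called higher in HG against NC numbered 0, against 1 by library size, 2 with limma on log2(TPM + 1), 1 with the replicate block and 0 to 1 without single libraries; lower mitochondrial genes numbered 1 and 0 with log2(TPM + 1). In HG-SIG against HG the 5 cytosolic rises became 11 by library size, 13 with log2(TPM + 1) and 2 to 5 without single libraries, and the 7 falls became 0 in both scalings. The 1 mitochondrial rise became 8 by library size, 9 with log2(TPM + 1), 2 with the replicate block and 0 to 2 without single libraries, and the 4 falls became 1 in both scalings. In HG-SIG against NC the 0 cytosolic rises became 2 and 8 and the 16 falls 9 and 8, while the 5 mitochondrial rises became 13 and 13 and the 3 falls 1 and 1, by library size and with log2(TPM + 1). Over all features, rises in HG-SIG against HG numbered 3417 with TMM, 6093 by library size (13311 tested in each) and 6522 with log2(TPM + 1) (12109 tested). In HG-SIG against NC they numbered 3978, 6786 and 7007.

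The summed cytosolic level in HG against NC was -0.20 on the log2 scale in TPM, against -0.23 with TMM, and the mitochondrial one 0.16 by library size, against 0.13. For HG-SIG against HG the cytosolic sum was -0.03 with TMM, 0.13 by library size and 0.16 in TPM, and the mitochondrial sum -0.04, 0.12 and 0.15. For HG-SIG against NC they were -0.26, -0.07 and -0.04 and 0.08, 0.27 and 0.30.

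The genes listed next changed sign and passed the test in at least one of the fits compared; 47 further sign changes, over all comparisons and alternatives, had no call in either fit. Log2 fold changes that turned above 0 in HG-SIG against HG by library size were those of Eprs (0.11), Farsa (0.01), Gars (0.15), Hars (0.00), Iars2 (0.00), Lars (0.04), Qars (0.12), Rars (0.12), Sars (0.15), Wars (0.01), Wars2 (0.15), Qrsl1 (0.16) and Aimp1 (0.03). With log2(TPM + 1) they were those of Eprs (0.15), Farsa (0.05), Gars (0.18), Hars (0.04), Iars2 (0.04), Kars (0.09), Lars (0.07), Mars1 (0.00), Qars (0.16), Rars (0.16), Sars (0.19), Tars (0.11), Tars2 (0.12), Vars (0.00), Wars (0.05), Wars2 (0.18), Qrsl1 (0.19), Aimp1 (0.07) and Eef1e1 (0.02). In HG-SIG against NC by library size they were those of Dars (0.08), Eprs (0.04), Farsa (0.12), Iars (0.05), Iars2 (0.18), Qars (0.14), Rars (0.03), Tars2 (0.18), Wars2 (0.03), Yars2 (0.14) and Aimp1 (0.02). With log2(TPM + 1) they were those of Dars (0.12), Eprs (0.08), Farsa (0.16), Iars (0.09), Iars2 (0.21), Kars (0.12), Qars (0.18), Rars (0.07), Tars2 (0.22), Vars (0.14), Wars (0.04), Wars2 (0.07), Yars2 (0.18), Aimp1 (0.06), Aimp2 (0.03) and Eef1e1 (0.01).

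Whether replicate numbers pair the samples was not tested. Deviations of same-numbered libraries from their group means correlated at -0.003 to 0.099 over 9 pairs, and those of differently numbered libraries at -0.077 to 0.041. Over all features the replicate block gave 2291 rises and 2372 falls in HG against NC, where the main fit gave 1899 and 2028. With the replicate block 15 cytosolic genes fell in HG against NC and 8 mitochondrial genes rose.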
